A study of Mus musculus with 3 samples.

Results

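Tenocytes are the fibroblasts of tendon. They were sought here among the cells of injured mouse tibialis anterior muscle, where they were chosen by their RNA. A cell was taken as a tenocyte when it held at least 3 unique molecular identifiers (UMIs, each standing for 1 captured RNA molecule) of Tnmd, Kera and Chad together and none of Ptprc, Pecam1 and Cdh15, which mark leukocytes, endothelial cells and muscle stem cells. The rule was met by 698 of 35247 cells, all with 500 or more genes and less than 10% of their UMIs from mitochondrial genes. They were compared with 2896 fibro-adipogenic progenitors (FAPs, the mesenchymal cells between muscle fibres), taken as cells with at least 2 UMIs of Pdgfra and none of Tnmd or of the 3 exclusion genes.

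Cells came from C57/BL6J mice whose tibialis anterior muscle had been damaged with barium chloride 4 days earlier. The 3 groups were young mice of 3 to 4 months given PBS, old mice of 24 to 26 months given PBS, and old mice of 24 to 26 months given recombinant METRNL (rMETRNL), a cytokine that macrophages secrete. Each group was 1 library, made from pooled triplicate muscle samples, so no animal can be told from another. No difference between groups has a replicate check, and no p-value is given. The 95% intervals below are exact and cover counting error only. A library held 179295668 to 228966697 UMIs over 12168 to 14012 barcodes. Pairs of libraries shared 58 to 80 barcodes, of which 0 belonged to a tenocyte in both.

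Tendon is built of parallel type I collagen fibrils, and tenocytes lie in rows between them. The transcription factors Scleraxis and Mohawk drive the tendon programme, tenomodulin is a membrane glycoprotein of mature tenocytes, and small leucine-rich proteoglycans such as fibromodulin and keratocan sit on the fibrils and set their width. FAPs belong to the same broad family of matrix-making cells and share many collagens with tenocytes.

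Of the 5 markers, Tnmd lies on chromosome X (133850980 to 133865577, plus strand), Kera on chromosome 10 (97606879 to 97613692, plus), Chad on chromosome 11 (94565047 to 94569127, plus), Fmod on chromosome 1 (134037254 to 134048277, plus) and Thbs4 on chromosome 13 (92751590 to 92794818, minus), all protein-coding in the mm10 annotation. The 250 bases before the RefSeq start of Tnmd, the gene present in nearly every member, and of Fmod and Thbs4, the markers that the gate did not use, are shown 5′ to 3′ from RefSeq's table for GRCm38.p6. Capitals mark CANNTG, the letters bound by basic helix-loop-helix factors such as Scleraxis. The pattern is matched on both strands at once, although the middle letters of a marked hexamer can differ between strands.

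Tnmd, chrX:133850758-133851007, plus strand: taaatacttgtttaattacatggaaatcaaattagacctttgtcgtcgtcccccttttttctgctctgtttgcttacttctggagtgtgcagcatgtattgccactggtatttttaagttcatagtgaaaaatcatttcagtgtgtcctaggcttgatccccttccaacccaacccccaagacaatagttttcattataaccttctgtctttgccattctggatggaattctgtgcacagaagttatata
Fmod, chr1:134037004-134037253, plus strand: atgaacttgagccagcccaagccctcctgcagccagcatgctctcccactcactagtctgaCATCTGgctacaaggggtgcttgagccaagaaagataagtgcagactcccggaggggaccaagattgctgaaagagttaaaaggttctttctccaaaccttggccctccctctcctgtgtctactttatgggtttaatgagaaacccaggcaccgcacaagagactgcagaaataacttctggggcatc
Thbs4, chr13:92794819-92795068, minus strand: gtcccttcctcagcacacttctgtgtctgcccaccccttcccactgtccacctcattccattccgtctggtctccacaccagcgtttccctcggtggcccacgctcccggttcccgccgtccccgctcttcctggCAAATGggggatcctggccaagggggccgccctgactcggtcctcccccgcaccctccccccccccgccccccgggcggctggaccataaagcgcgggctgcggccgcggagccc

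The Fmod window held 1 such hexamer, which began 189 bases before the start, and the Thbs4 window held 1, which began 115 bases before it. The Tnmd window held 0. Among 32851 promoters of this length, 66.2% held at least 1 CANNTG. Among 127 promoters of 84 genes that were higher in tenocytes than in FAPs, 64.6% did, a share close to that of all promoters. A match is a description of the letters only.

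The gate was met mostly through Tnmd. All members but 1, in the old rMETRNL library, held a Tnmd UMI. Tnmd alone was found in 93 of 229 young PBS members (40.6%), 101 of 177 old PBS members (57.1%) and 140 of 292 old rMETRNL members (47.9%). All 3 gate genes were found in 62, 40 and 72 members (27.1%, 22.6% and 24.7%). The old PBS library thus had the highest share of members marked by Tnmd alone. Just outside the threshold, 35, 33 and 60 otherwise eligible cells held a sum of 2 UMIs, and just inside it 24, 26 and 27 held a sum of 3. Fmod was at 42.7, 57.0 and 36.2 counts per 1000000 UMIs (CPM) just outside and at 146, 21.6 and 174 CPM just inside. Just inside, old PBS lay under the cells just outside and under its FAPs, which held 23.4 CPM.

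Fmod and Thbs4 checked the label, since the gate did not use them, although they were measured in the same cells. With every cell thinned to 5000 UMIs, Fmod was found in 71.8%, 59.8% and 65.1% of the tenocytes of young PBS, old PBS and old rMETRNL. In FAPs the same share was 10.6%, 6.33% and 4.29%, and it was 1.34%, 1.76% and 1.92% in macrophages, which give the background of free RNA. Thbs4, which encodes thrombospondin-4, was found in 85.0%, 73.4% and 82.0% of tenocytes, 36.5%, 33.6% and 27.5% of FAPs and 4.02%, 3.46% and 4.16% of macrophages. Thinning left out 9, 8 and 20 tenocytes with fewer UMIs. Without thinning, Fmod was found in 80.3%, 72.9% and 76.0% of tenocytes and Thbs4 in 91.3%, 80.8% and 89.4%. Median UMIs per cell were 21003, 19408 and 19125 in tenocytes and 15428.5, 16087 and 15831 in macrophages. Taken over all members, both markers were far above background in all 3 libraries, as the label says, and neither was found in every member at equal depth. These shares were not split by the sum of the gate genes. Members with a sum of 3 to 9 were at least 2-fold higher than FAPs in all 3 libraries in only 5 of 9695 genes. Fmod was among the 5, but the label is weaker for these members.

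The members were not uniform. The gate sum had medians of 25, 13 and 18 UMIs in young PBS, old PBS and old rMETRNL, quartiles of 7 and 68, 5 and 51, and 6 and 58, and reached 242, 347 and 239. Members were therefore also described by gate sums of 3 to 9, 10 to 29 and 30 or more. Sums of 3 to 9 were found in 72, 72 and 99 members, 10 to 29 in 54, 43 and 77, and 30 or more in 103, 62 and 116. Median UMIs per cell were 20432, 24272 and 20903 at the lowest sums and 20807, 17361 and 17995.5 at the highest, and the part of depth was not tested. The sums and the genes described by them were counted in the same cells, and the gradients below are a description. The plot of gate sums shows the old PBS curve below the others over most of the range.

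**Figure D1:**
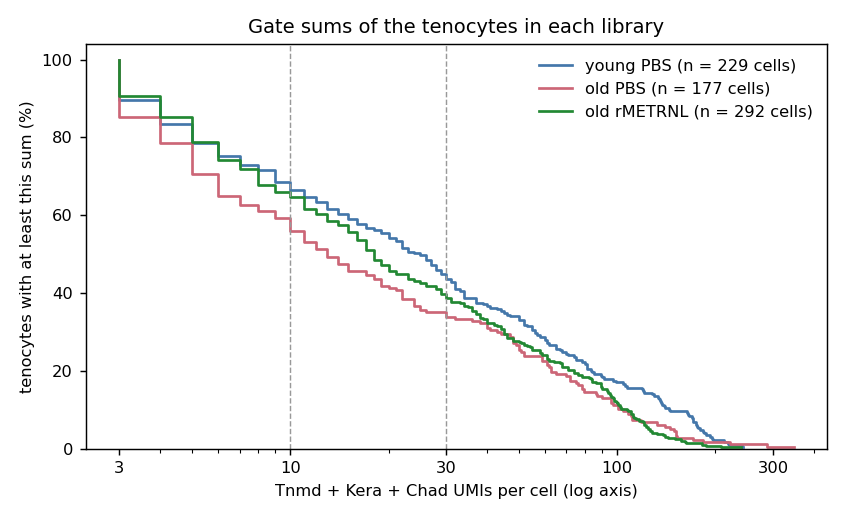
Percent of the tenocytes of each library (vertical axis) with at least a given UMI sum of Tnmd, Kera and Chad (horizontal axis, log scale). Dashed lines mark sums of 10 and 30. Of the young PBS, old PBS and old rMETRNL members, 45%, 35% and 39.7% lay at or above 30.

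Levels are given as CPM, the UMIs of a gene over all cells of a class in 1 library per 1000000 UMIs of those cells. Fmod, a proteoglycan that binds collagen fibrils, was at 162, 123 and 281 CPM in members with a sum of 3 to 9 (young PBS, old PBS and old rMETRNL in this order here and below). It was at 1143, 1924 and 1372 CPM in those with a sum of 10 to 29, and at 4641, 6480 and 5391 CPM in those of 30 or more. FAPs held 28.5, 23.4 and 10.9 CPM. All 3 libraries were ordered alike, and members of the lowest sums lay nearer in CPM to FAPs than to members of the highest sums.

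Cilp2, a matrix protein of cartilage and tendon surfaces, was at 10.6, 1.62 and 8.56 CPM in the members of lowest sums and at 389, 394 and 394 CPM in those of highest sums. Scx, which encodes Scleraxis, was at 21.9, 4.87 and 14.4 CPM against 187, 206 and 200 CPM. Mkx, which encodes Mohawk, was at 13.8, 7.57 and 11.3 CPM against 64.9, 67.6 and 63.7 CPM. Each of these 3 genes differed little between libraries at sums of 30 or more. At sums of 3 to 9 old PBS was lowest in each.

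Wif1, a secreted inhibitor of Wnt ligands, held 0 UMIs in members of sums 3 to 9 in all 3 libraries and was at 262, 90.7 and 143 CPM in those of 30 or more. Members with at least 10 Wif1 UMIs numbered 27 of 103, 1 of 62 and 9 of 116, all at the highest sums. Mmp13, a collagenase, was highest at sums of 10 to 29 in young PBS and old rMETRNL and rose with the sum in old PBS. It was at 810, 191 and 856 CPM, then 3971, 1521 and 2349 CPM, then 1097, 1532 and 767 CPM over the rising sums. Mmp13 was found in 45, 22 and 40 members, of which 35, 16 and 31 held at least 10 UMIs. With cells thinned to 5000 UMIs it was found in 18.6%, 11.2% and 12.5% of tenocytes, 7.50%, 5.70% and 7.17% of macrophages and 1.96%, 1.99% and 1.3% of FAPs. The part of free RNA in the members with few UMIs was not tested. Median UMIs of these cells before thinning were 21684.5, 20023 and 19872 in tenocytes and 15537, 16319.5 and 16005 in macrophages.

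**Figure D2:**
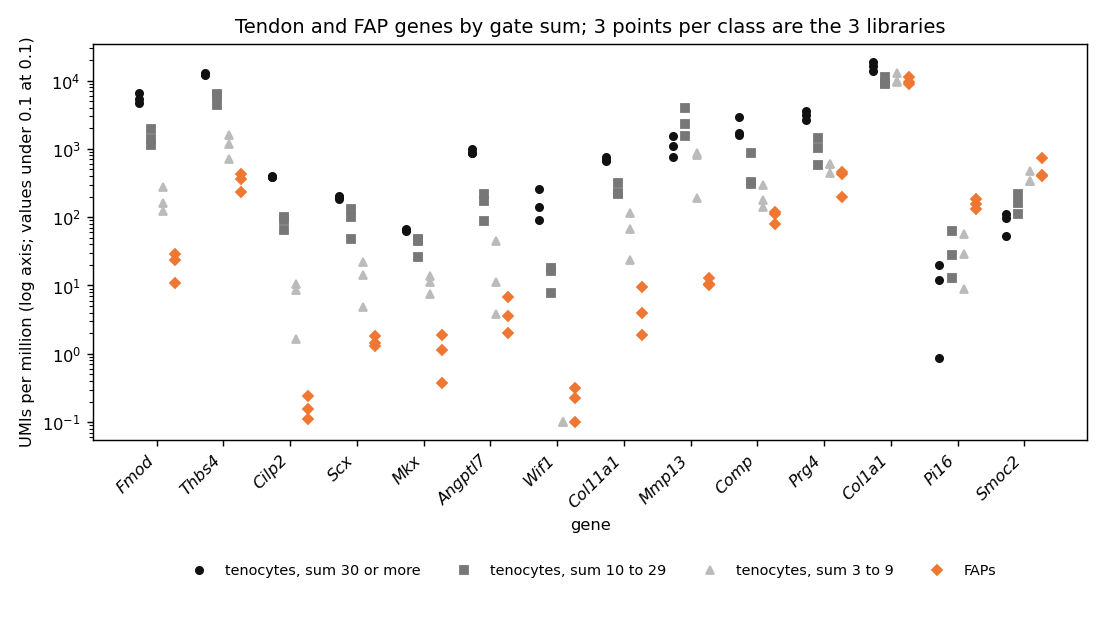
Level of 14 genes (CPM, log scale; values under 0.1 drawn at 0.1) in tenocytes with a gate sum of 30 or more, 10 to 29 and 3 to 9 and in FAPs; each point is 1 library. Fmod, Thbs4, Cilp2, Scx, Mkx and Angptl7 step down from the highest sums to FAPs, Mmp13 falls step by step in old PBS but not in young PBS or old rMETRNL, and Pi16 and Smoc2 are the genes with more in FAPs.

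Pdgfra, the gene that defined FAPs, was not absent from the members. At least 2 UMIs of it were held by 46.3%, 49.2% and 45.9% of them. By gate sum this share was 63.9%, 77.8% and 74.7% at 3 to 9, 42.6%, 37.2% and 41.6% at 10 to 29, and 35.9%, 24.2% and 24.1% at 30 or more. At 5000 UMIs per cell a Pdgfra UMI was found in 66 of 220 young PBS tenocytes, in 39.6% and 36.8% of old PBS and old rMETRNL tenocytes, and 62.6%, 76.4% and 72.9% of FAPs. Doublet calls, set at a rate by library size, fell on 8.30%, 13.6% and 11% of the members and on 2.91%, 6.45% and 6.03% of those with a sum of 30 or more. Their part in the gradient was not tested.

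Because the gate picked the tenocytes from these same counts, their ratios to FAPs are a description. Among 9939 genes with at least 100 UMIs over both classes in each library, gate genes aside, 123 were at least 2-fold higher in tenocytes in all 3 libraries (1.24% of those tested) and 83 at least 2-fold lower (0.835%). The median of all these genes lay at -0.09, -0.03 and -0.07 on the log2 scale. Members of the lowest gate sums differed from FAPs by this measure in 5 genes higher and 11 lower of 9695. For sums of 10 to 29 the numbers were 81 and 139 of 9584, and for 30 or more 206 and 473 of 9651.

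Of 16 measured tendon transcription factors, 2 were higher and 0 lower. Scx was at 116, 92.4 and 94.3 CPM in tenocytes against 1.83, 1.28 and 1.44 CPM in FAPs, a ratio of 63.4 (95% interval 47.8 to 85.6), 72.0 (47.9 to 113) and 65.4 (47.3 to 92.9). Mkx was at 44.6, 34.2 and 35.3 CPM against 1.90, 1.13 and 0.370 CPM, a ratio of 23.4 (17.4 to 32.0), 30.2 (19.1 to 49.9) and 95.3 (50.8 to 202). The other 14 stayed within 2-fold in at least 1 library. Egr1, a mechanically responsive factor of tendon and many other cells, was at 1248, 1438 and 1390 CPM against 1111, 1254 and 1107 CPM.

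Among 9 measured fibrillar collagens only the chains of type XI met the fold. Col11a1 was at 459, 268 and 339 CPM against 9.44, 1.90 and 3.92 CPM, and Col11a2 at 72.5, 41.0 and 45.9 CPM against 0.588, 0.976 and 0.777 CPM. Type XI collagen lies in the core of fibrils and limits their growth. Col1a1, the main chain of tendon collagen, was at 15199, 10894 and 12063 CPM against 11330, 9678 and 8872 CPM, ratios of 1.34, 1.13 and 1.36. Col1a2, its partner chain, had ratios of 1.38, 1.10 and 1.31. Col3a1, the collagen of young and repairing matrix, was at 8101, 8610 and 7608 CPM against 11279, 13283 and 11913 CPM, ratios of 0.718, 0.648 and 0.639. The classes thus differed little in the abundant collagens and much in the minor fibril-core collagen.

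Of 16 measured other collagens, 2 were higher, Col12a1 and Col8a2. Col12a1, which coats fibrils, was at 635, 518 and 615 CPM against 232, 152 and 172 CPM. Col22a1, a collagen of the myotendinous junction, was under the minimum of UMIs and was at 17.8, 20.1 and 19.9 CPM in tenocytes, with 0 UMIs in FAPs. Of 30 measured enzymes that process collagen, 1 met the fold. P3h2, a prolyl 3-hydroxylase, was at 25, 24.4 and 22.8 CPM against 2.11, 2.11 and 2.26 CPM.

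Small leucine-rich proteoglycans were split. Of 12 measured beside the gate genes, Fmod and Prelp were higher and 0 were lower. Fmod reached ratios of 86.6 (80.7 to 93.0), 105 (95.5 to 116) and 232 (207 to 261), at near-equal levels of 2467, 2452 and 2522 CPM in the tenocytes. Prelp, which anchors basement membranes to matrix, was at 518, 596 and 627 CPM against 184, 258 and 233 CPM. Dcn, the abundant decorin of most connective tissue, was at 9544, 9328 and 10322 CPM against 3763, 6091 and 4732 CPM and missed the fold in old PBS with a ratio of 1.53. Biglycan (Bgn) was lower in tenocytes by less than the fold, at ratios of 0.807, 0.819 and 0.835.

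Of 47 measured matricellular and fibrous glycoproteins 13 were higher and 2 lower. Thbs4, which binds collagen at the myotendinous junction, was at 7924, 5222 and 6363 CPM against 357, 427 and 235 CPM. Comp, its relative that assists collagen assembly, was at 1631, 644 and 799 CPM against 111, 119 and 78.6 CPM. Cilp2 was at 207, 141 and 171 CPM against 0.242, 0.154 and 0.111 CPM, the largest ratios of all called genes by the library with the smallest ratio, 854 (413 to 2129) in young PBS.

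Prg4, the lubricin of joint and sheath surfaces, was at 2159, 1234 and 1580 CPM against 197, 424 and 452 CPM. Its ratios were 11, 2.91 and 3.49, and FAPs of both old libraries held more of it than those of young PBS. Angptl7, a secreted protein known from the eye and ligament, was at 432, 355 and 394 CPM against 2.01, 6.73 and 3.55 CPM. Ptx4, a pentraxin, was at 117, 90.5 and 70.8 CPM against 0.242, 0.668 and 0.296 CPM. Matn4, a matrilin that links matrix filaments, was at 125, 60.4 and 47.5 CPM against 3.18, 2.21 and 2.40 CPM.

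The other higher members of this list were Spp1, Tgfbi, Fbln1, Fbln7, Mfap4 and Fibin, between 2.22-fold (Fbln1 in old PBS, Tgfbi in young PBS) and 5.77-fold (Spp1 in young PBS). Both lower members are also known from FAPs or other fibroblasts. Efemp1, an elastic-fibre protein, was at 31.2, 93.7 and 61.9 CPM against 166, 201 and 267 CPM. Smoc2, a calcium-binding matrix protein, was at 191, 290 and 188 CPM against 398, 746 and 411 CPM.

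Of 21 measured genes of the Wnt pathway, 4 were higher and 0 lower. Wif1 was at 126, 29.7 and 59.1 CPM against 0.311, 0.0514 and 0.222 CPM, and rested in FAPs on so few UMIs that its ratios of 404 (211 to 887), 577 (102 to 23006) and 266 (121 to 730) were loose. Sfrp4, which binds Wnt ligands, was at 112, 183 and 291 CPM against 35.1, 40.6 and 43.5 CPM. Dkk3, a Dickkopf relative, was at 51.0, 67.0 and 49.5 CPM against 12.9, 14.7 and 10.5 CPM. Nkd2, an intracellular antagonist of the pathway, was at 21.9, 20.9 and 16.3 CPM against 9.83, 8.99 and 7.62 CPM.

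Of 33 measured genes of the TGF-beta, BMP and GDF pathway 1 did, Chrdl1, a secreted BMP antagonist, at 85.9, 69.4 and 88.1 CPM against 15.6, 20.03 and 22.3 CPM. Of 24 FGF, IGF and PDGF genes 1 did, the ligand Pdgfa, at 62.4, 53.7 and 86.2 CPM against 25.6, 22.2 and 35.4 CPM. Of 21 integrin and adhesion genes 2 did. Itga2, the alpha chain of a collagen receptor, was at 27.9, 28.6 and 32.2 CPM against 3.6, 4.88 and 3.29 CPM, and Itgbl1, a secreted integrin-like protein, at 286, 253 and 257 CPM against 51.2, 81.0 and 44.3 CPM.

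Among 24 measured proteases and inhibitors, Mmp13 and Mmp3 were higher. Mmp13 was at 1655, 873 and 1199 CPM against 10.1, 10.4 and 12.7 CPM, and most members held none, as given above. Mmp3, a stromelysin, was at 445, 391 and 296 CPM against 65.8, 115 and 92.4 CPM, but in young PBS 1 cell held 66.6% of the Mmp3 UMIs of all members. Other genes of the largest ratios were Chodl, a membrane lectin (66.1, 99.3 and 72.1 CPM against 0.242, 0.103 and 0.296 CPM), Sema3a, a guidance ligand (42.6, 38.4 and 41.1 against 1.59, 0.719 and 1.66 CPM), and Edil3, an integrin ligand (68.0, 54.5 and 57.3 against 4.12, 1.39 and 3.22 CPM). Kcnma1, a potassium channel, was at 67.6, 52.2 and 60.5 CPM against 4.12, 2.0 and 1.74 CPM. Ankrd1, a target of YAP signalling, was at 42.4, 25.2 and 41.5 CPM against 1.07, 1.54 and 1.37 CPM.

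Egfl6, an EGF-repeat matrix protein, was at 60.1, 53.7 and 59.2 CPM against 5.78, 1.23 and 2.0 CPM, and Nt5e, the CD73 ectoenzyme, at 19.6, 18.3 and 14.4 CPM against 1.56, 1.69 and 1.41 CPM. Ptgis, prostacyclin synthase, had the steadiest ratio among the 20 genes of largest ratio. It was at 196, 190 and 190 CPM against 14.4, 14.9 and 13.9 CPM, ratios of 13.7 (12.2 to 15.4), 12.7 (11.1 to 14.6) and 13.6 (12.1 to 15.4).

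Of 20 measured FAP genes 6 were lower in tenocytes and 0 higher, and the list's median ratio was -0.80, -0.82 and -0.86 on the log2 scale. Pi16, a marker of adventitial fibroblasts, was at 14.9, 40.5 and 22 CPM in tenocytes against 131, 183 and 158 CPM. Hsd11b1, which regenerates active glucocorticoid, was at 9.11, 15.6 and 8.16 CPM against 33.7, 58.3 and 36.1 CPM. Cxcl14, a chemokine of stromal cells, was at 235, 567 and 318 CPM against 682, 1565 and 1036 CPM. Osr1, a FAP transcription factor, and Cd55, a complement inhibitor, were the others beside Smoc2. Ly6a, which encodes the Sca-1 used to sort FAPs, did not meet the fold, at 859, 1006 and 1117 CPM against 1483, 1368 and 1877 CPM.

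Of 11 sheath and paratenon genes Has1, Has2 and Scara5 were lower and Prg4 higher. Has1, a hyaluronan synthase, was at 242, 454 and 285 CPM against 525, 988 and 741 CPM. Of 36 inflammatory mediators Ccl11, Cxcl5 and Cxcl14 were lower and Ptgis and Lcn2 higher, and the list's median was -0.50, -0.48 and -0.74 on the log2 scale. Ccl11, eotaxin, was at 82.0, 103 and 79.6 CPM against 224, 378 and 278 CPM. Of 32 interferon-stimulated genes Oas1a alone was lower, and of 31 cell cycle genes 0 were called either way. Smaller genes among the 15 of lowest ratio included Ret, a receptor tyrosine kinase (1.55, 4.24 and 4.41 against 10.1, 13.1 and 15.9 CPM), and Pla1a, a phospholipase (2.13, 9.53 and 13.7 against 21.9, 49.6 and 42.9 CPM). Others of these were at low levels. Cmah, which makes a form of sialic acid, was at 1.36, 1.32 and 1.31 CPM against 7.72, 10.2 and 16.2 CPM, and Dmkn, dermokine, at 0.194, 0.265 and 6.36 CPM against 7.40, 8.11 and 33.2 CPM, where 1 old rMETRNL member held 97.4% of the Dmkn UMIs in its class. Rorb, an orphan nuclear receptor, held 0 UMIs in young PBS tenocytes and was at 2.38 and 0.653 CPM in the other libraries against 7.37, 8.89 and 13.0 CPM in FAPs. Efhd1, a mitochondrial calcium-binding protein, was at 1.55, 7.15 and 6.69 CPM against 12.6, 22.3 and 26.4 CPM. Cldn15, Rgs17, Smpd3, Krtdap and Acy3 were at 0 to 3.59 CPM in tenocytes and at 3.74 to 13.7 CPM in FAPs.

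Markers of other cell types were at low levels in the members, with exceptions. The 15 macrophage markers summed to 1279, 607 and 847 CPM in tenocytes, 458, 427 and 448 CPM in FAPs and 37362 to 38504 CPM in macrophages. Spp1, which tendon cells also make, was 922, 271 and 402 CPM of that sum, and the other 14 summed to 357, 337 and 445 CPM in tenocytes and 298, 350 and 327 CPM in FAPs. The 1 at 0 in all members was Ptprc, by the gate. The 10 mural markers summed to 325, 484 and 753 CPM in tenocytes against 359, 203 and 208 CPM in FAPs, and 1 of the 5 that passed the minimum was lower and 0 higher in all 3 libraries. Acta2, smooth muscle actin, was at 164, 225 and 375 CPM against 191, 104 and 116 CPM, and Tagln, an actin-binding protein of smooth muscle, at 109, 151 and 267 CPM against 107, 37.2 and 48.5 CPM. Of the Acta2 and Tagln UMIs in tenocytes of old rMETRNL, 1 member held 36.0% and 37.6%. Rgs5, a defining pericyte gene, was at 1.16, 2.12 and 1.96 CPM against 12.4, 9.24 and 4.59 CPM. The 9 glial markers summed to 242, 232 and 313 CPM against 82.3, 108 and 124 CPM. Of that sum 222, 218 and 299 CPM was Cryab, a small heat shock protein of many tissues. Of the 10 muscle stem cell and myoblast markers 3 passed the minimum, and 1 of them, Chodl, was higher in all 3 libraries, with the values given above. Pax7, which defines muscle stem cells, was at 0.194, 0.530 and 0.163 CPM in tenocytes, Myod1 at 0.388, 0.794 and 0.326 CPM, and Cdh15 at 0 by the gate.

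In young PBS 2.01% of the kept cells were tenocytes (1.76 to 2.28). The share was 1.60% (1.38 to 1.85) for old PBS and 2.28% (2.03 to 2.56) for old rMETRNL. Old PBS was lowest and old rMETRNL highest. The ratio of old PBS to young PBS was 0.797 (0.651 to 0.974), that of old rMETRNL to old PBS 1.43 (1.18 to 1.73), and that of old rMETRNL to young PBS 1.14 (0.953 to 1.36). Among cells with Ptprc at 0 the shares were 6.86%, 4.78% and 7.02%. FAPs made up 9.0%, 7.56% and 8.09%, so that there were 0.223, 0.212 and 0.282 tenocytes per FAP. That quotient in old PBS was 0.949 of the one in young PBS (0.775 to 1.16), an interval that takes in no difference, and in old rMETRNL 1.33 times that in old PBS (1.10 to 1.62). Both intervals take the numbers of FAPs as fixed, so they leave out the counting error of FAPs and are too narrow.

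By gate sum the libraries differed unevenly. Members with a sum of 3 to 9 were 0.631%, 0.651% and 0.774% of kept cells, with ratios of 1.03 (0.733 to 1.45) for old PBS over young PBS and 1.19 (0.869 to 1.63) for old rMETRNL over old PBS. Members with a sum of 30 or more were 0.903%, 0.561% and 0.907%, with ratios of 0.621 (0.445 to 0.859) and 1.62 (1.18 to 2.24). Old rMETRNL and young PBS held near-equal shares of these cells. With 1 library per group, the group and the library, its digestion and the tendon left on the muscle included, cannot be told apart. The plot of shares gives these values with their intervals.

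**Figure D3:**
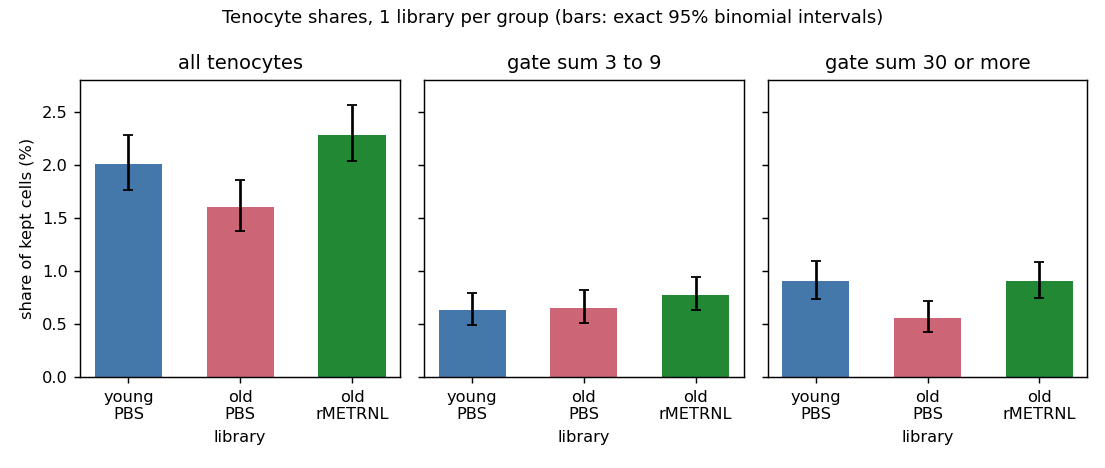
Tenocytes as a percent of kept cells in each library, for all members, members with a gate sum of 3 to 9 and members with a sum of 30 or more; bars are shares and lines exact 95% binomial intervals, counting error only. Old PBS is lowest for all members (1.60%) and for sums of 30 or more (0.561%), and the 3 libraries overlap for sums of 3 to 9.

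Between young and old muscle given PBS, 229 and 177 tenocytes were compared. Of 8959 genes with at least 100 UMIs over the members, 109 were at least 2-fold higher in old PBS (1.22%) and 66 at least 2-fold lower (0.737%). The median of all genes was 0.03 on the log2 scale. Because old PBS held fewer members of high gate sum, many ratios are also given in members with a sum of 30 or more or in FAPs of the same libraries.

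The defining genes of tenocytes differed less than 2-fold. Fmod was at 2467 CPM in young PBS and 2452 CPM in old PBS, a ratio of 0.994 (0.968 to 1.02), and 1.40 in members of sum 30 or more. Thbs4 was at 7924 and 5222 CPM, a ratio of 0.659 (0.648 to 0.670), and 0.920 in members of sum 30 or more. Scx had a ratio of 0.795 (0.694 to 0.908), and 1.10 (0.94 to 1.29) in members of sum 30 or more. Cilp2 had 0.682 in all members and 1.01 in those. The lower values of Thbs4, Scx and Cilp2 in all members of old PBS were thus absent or smaller where only high gate sums were compared. Col1a1 had a ratio of 0.717 in all members, 0.729 in those of high sum and 0.854 in FAPs, so it was lower in old PBS in each.

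Of the matrix genes, 4 of 47 matricellular genes were at least 2-fold lower in old PBS and 1 was higher. Comp was at 1631 CPM in young PBS and 644 CPM in old PBS, a ratio of 0.395 (0.378 to 0.413), and 0.555 (0.527 to 0.584) in members of sum 30 or more, while FAPs had 1.07. Spp1, osteopontin, was at 922 and 271 CPM, a ratio of 0.293 (0.274 to 0.314), 0.386 in members of high sum and 0.481 in FAPs. Macrophages held 2204 and 2405 CPM of Spp1, and the other 14 macrophage markers were at 357 and 337 CPM in the members, near each other. Matn4 was at 125 and 60.4 CPM, a ratio of 0.483 (0.413 to 0.563) and of 0.661 at high sums. Spon2, a secreted spondin, went the other way, at 44.4 CPM in young PBS and 130 CPM in old PBS, a ratio of 2.94 (2.50 to 3.45), and 5.25 (4.33 to 6.38) at high sums against 1.66 in FAPs.

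Wif1 was at 126 and 29.7 CPM, a ratio of 0.236 (0.191 to 0.289), and 0.347 (0.280 to 0.427) at high sums. In FAPs, with 9 and 1 UMIs, the ratio was 0.165 (0.00376 to 1.19). It was found in 70 young PBS members and 27 old PBS members. Srgn, which encodes the granule proteoglycan serglycin, was at 66.7 and 25.2 CPM, a ratio of 0.377 (0.297 to 0.475), of 0.284 at high sums and of 1.33 in FAPs. It was found in 78 and 46 members, and macrophages held 483 and 473 CPM. Megf6, an EGF-repeat protein, was at 12.8 and 3.18 CPM, and in FAPs at 9.79 and 2.62 CPM, so the classes had near-equal ratios of 0.248 and 0.268. Crabp1, which binds retinoic acid, was at 49.2 and 16.4 CPM, a ratio of 0.333, 0.504 (0.344 to 0.723) at high sums and 0.576 in FAPs. Ccnb1ip1, a cyclin B-interacting protein known from meiosis, was at 16.7 and 95.6 CPM, a ratio of 5.73 (4.52 to 7.34), of 8.16 at high sums and of 2.39 in FAPs.

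Of 36 inflammatory mediators 8 were at least 2-fold higher in old PBS and 2 lower, with a list median of 0.39 on the log2 scale. Their summed levels were 8019, 11710 and 8454 CPM. In members of sum 3 to 9 the summed levels were 10415, 16885 and 11117 CPM. In those of sum 30 or more they were 6194, 5752 and 6115 CPM. The higher summed level in old PBS was thus found at low gate sums, but Cxcl9 and Cxcl10, given below, were also higher at high sums. FAPs held 12963, 17409 and 15050 CPM. Cxcl9, a chemokine induced by interferon-gamma, was at 247, 709 and 249 CPM, a ratio of 2.87 (2.68 to 3.07), but 52 of 177 old PBS members held it and 1 cell had 34.4% of its UMIs there. At high sums its ratio was 7.85 and in FAPs 1.12. Cxcl10, from the same response, was at 401, 899 and 491 CPM, and its ratios were 2.24 (2.12 to 2.37) in all members, 3.27 (2.86 to 3.75) at high sums and 1.18 in FAPs.

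Tnfaip6, a hyaluronan-binding protein of inflamed tissue, was at 312, 754 and 378 CPM, a ratio of 2.42 (2.27 to 2.57) that was 0.818 at high sums and 1.85 in FAPs. Tnfaip2, an endothelial and myeloid gene induced by TNF, was at 38.2 and 153 CPM, a ratio of 4.01 (3.40 to 4.74) that turned to 0.636 (0.313 to 1.21) at high sums and was 1.65 in FAPs. Mustn1, a small protein of the musculoskeletal system, had 3.48 in all members, 0.979 at high sums and 1.90 in FAPs. For these 3 genes the ratio was under 1 in the members richest in Tnmd, Kera and Chad, with intervals that took in 1 for Tnfaip2 and Mustn1. The lower mediators were Lif and Il11, cytokines of the IL-6 family, of which Il11 was at 77.9 and 32.6 CPM, a ratio of 0.418 (0.339 to 0.513) and of 0.368 at high sums, while FAPs had 1.43.

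All 7 measured muscle fibre genes were at least 2-fold higher in old PBS, with a list median of 2.25 on the log2 scale. The minimum was summed over the 3 libraries, where the fibre genes held 191, 590 and 1777 UMIs. Which of them were measured was therefore set mostly by the old libraries. The summed level of the 14 listed fibre genes was 37.0, 156 and 290 CPM in tenocytes, 26.6, 325 and 56.2 CPM in FAPs and 166, 573 and 192 CPM in macrophages. Acta1, skeletal muscle actin, was at 7.36, 35.5 and 56.0 CPM in tenocytes, 5.54, 74.0 and 12.4 CPM in FAPs and 42.8, 131 and 44.6 CPM in macrophages. FAPs in old PBS and macrophages in young and old PBS held more of it than the members, and each of the 3 classes was higher in old PBS than in young PBS. The part of free fibre RNA in these values was not tested. In old rMETRNL 1 member held 81.5% of the fibre UMIs, and without it the sum was 53.9 CPM.

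Several of the largest ratios rested on few cells. Myh11, a smooth muscle myosin, was at 0.194 and 46.9 CPM, but 4 old PBS members held it and 1 of them had 98.3% of the UMIs. Cxcl13 held 0 UMIs in young PBS and was at least 19.1-fold higher in old PBS, where 5 members held it. Epyc, epiphycan, a proteoglycan of growing cartilage, was at 53.7 CPM in young PBS and held 0 UMIs in old PBS, at least 67.6-fold lower with a floor of 3 UMIs in the library, but 3 young PBS members held it and 1 had 88.1% of the UMIs. Slpi, a protease inhibitor, was at 107 and 24.9 CPM in 29 and 10 members. Its ratios were 0.233 in all members, 0.305 at high sums and 0.0450 in FAPs, but 1.51 in members with Pdgfra at 0. Chil1 was at 35.7 and 1.32 CPM in 11 and 5 members, Mmp12 at 16.5 and 2.12 CPM in 8 and 8, and Inmt at 7.56 and 1.06 CPM in 10 and 3. For Hist1h1b, a histone, at 68.0 and 23.8 CPM, 1 old PBS member held 92.2% of the UMIs.

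Of 20 FAP genes, 4 were at least 2-fold higher in tenocytes of old PBS than of young PBS, with a list median of 0.64 on the log2 scale. Pi16 was at 14.9 and 40.5 CPM, a ratio of 2.71 (2.05 to 3.62), but 0.0428 (0.00106 to 0.25) at high sums. Cd55 was at 12.4 and 33.1 CPM, a ratio of 2.67, and 0.548 at high sums. In FAPs the ratios were 1.40 and 1.98. The FAP genes summed to 7720 and 9354 CPM in all members, 6089 and 6595 CPM in members of sum 30 or more, and 10100 and 15196 CPM in FAPs.

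Between the libraries of old mice, 55 of 8959 genes were at least 2-fold higher in tenocytes of old rMETRNL than of old PBS (0.614%) and 43 at least 2-fold lower (0.48%), with a median of all genes of -0.01 on the log2 scale. This comparison shares the old PBS library with the one above. Tenocyte markers again moved by little. Fmod had a ratio of 1.03 (1.0 to 1.06), and 0.832 at high sums. Thbs4 had 1.22 (1.20 to 1.24), and 1.05 at high sums. Scx had 1.02 (0.892 to 1.17), and Col1a1 had 1.11 (1.09 to 1.12).

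Of 30 immediate early and heat shock genes 3 were at least 2-fold higher in old rMETRNL and 0 lower. Hspa1a, an inducible HSP70, was at 782, 354 and 1231 CPM in the 3 libraries. Its ratio for old rMETRNL over old PBS was 3.48 (3.28 to 3.69), 4.45 (3.94 to 5.04) at high sums and 1.77 in FAPs. Old PBS was the lowest of the 3 libraries in tenocytes, FAPs and macrophages, where it was at 1339, 657 and 1344 CPM. Hspa1b, a near-identical copy with which Hspa1a may share reads, was at 461, 290 and 722 CPM, a ratio of 2.49 (2.33 to 2.66). Hspb1, a small heat shock protein, was at 387, 355 and 723 CPM, a ratio of 2.04 (1.92 to 2.17), of 2.90 at high sums and of 1.86 in FAPs.

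Of 31 cell cycle genes 4 were at least 2-fold higher in old rMETRNL and 0 lower, with a list median of 0.58 on the log2 scale. Mcm3, part of the replication helicase, was at 23.3, 9.0 and 31.7 CPM, a ratio of 3.52 (2.43 to 5.22), of 4.89 (2.25 to 12.6) at high sums and of 1.86 in FAPs. Rrm2, a subunit of ribonucleotide reductase, was at 22.5, 15.6 and 40.3 CPM, a ratio of 2.58 (1.94 to 3.49), and 1.51 in FAPs. The 31 genes summed to 2141, 2087 and 2928 CPM in all members, but to 2289, 2198 and 2272 CPM in those of sum 30 or more and to 2395, 1918 and 2542 CPM in FAPs. The higher summed level in old rMETRNL was therefore found in members of lower gate sum. This does not hold for every gene, since Mcm3 was also higher at high sums. At 5000 UMIs per cell, Mki67, a marker of cycling cells, was found in 7.73%, 6.51% and 8.82% of tenocytes and 10.1%, 8.56% and 10.9% of FAPs.

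Of 36 inflammatory mediators 3, Cxcl9, Cxcl5 and Ptx3, were at least 2-fold lower in old rMETRNL and 2 higher, with a list median of -0.37 on the log2 scale. Cxcl9 had a ratio of 0.351 (0.329 to 0.374), 0.116 (0.0830 to 0.159) at high sums and 0.781 in FAPs. Cxcl10 had 0.546 (0.519 to 0.573), 0.508 at high sums and 0.796 in FAPs. Serpine2, a protease inhibitor, was at 253 and 110 CPM, a ratio of 0.434 (0.393 to 0.480), 0.551 (0.317 to 0.963) at high sums and 0.604 in FAPs. Cxcl10 did not meet the fold, and Serpine2 was at 1.09 in members with Pdgfra at 0.

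Other lower genes, mediators among them, turned at high gate sums. Ptx3, a soluble pentraxin, was at 457 and 216 CPM, a ratio of 0.473 (0.440 to 0.508), but 10.4 (6.13 to 19.3) at high sums, where its level was low in old PBS. Cxcl5, a neutrophil chemokine, was at 145 and 64.6 CPM, a ratio of 0.445, but 8.93 at high sums. Eln, elastin, was at 159 and 74.1 CPM, a ratio of 0.466, but 4.77 (2.30 to 11.4) at high sums. H19, an imprinted non-coding RNA, was at 261 and 122 CPM, a ratio of 0.468, but 28.3 (4.87 to 1136). Has2, Dio2 and Dlk1, at ratios of 0.447, 0.303 and 0.275, had 1.42, 1.80 and 3.97 there with intervals that took in 1. In old PBS 1 member held 73.1% of the Dlk1 UMIs, 40% of those of Dio2, 34.8% of Eln and 33.9% of Cxcl5. Without the member of each library with the most UMIs of the gene, the ratios were 0.846, 0.393, 0.613 and 0.497.

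Ccl5 was at 60.1 and 7.83 CPM, but 8 old PBS members held it, 1 with 81.1% of the UMIs. Its ratio of old rMETRNL to old PBS turned to 7.78 without doublet calls and to 4.21 in members with Pdgfra at 0. Among the higher genes, Swt1, an RNA endonuclease, was at 79.8, 33.4 and 89.8 CPM, a ratio of 2.69 (2.21 to 3.29), 1.57 at high sums and 2.62 in FAPs. Ccl12, a monocyte chemokine, was at 1.85 and 10.6 CPM in 5 and 14 members. Saa3, an acute-phase protein, was at 15.4 and 62.7 CPM in 6 and 9 members, and 1 old rMETRNL member held 79.4% of the UMIs. Igfbp2 was at 0.530 and 17.1 CPM, with 91.4% in 1 of 7 old rMETRNL members. Epyc, with 0 UMIs in old PBS, was at least 19.9-fold higher in old rMETRNL, where 7 members held it. Ccl4, a macrophage chemokine, was at 3.71 and 17.3 CPM in tenocytes and 401 and 707 CPM in macrophages. The plot of ratios between libraries sets these comparisons side by side for 15 genes.

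**Figure D4:**
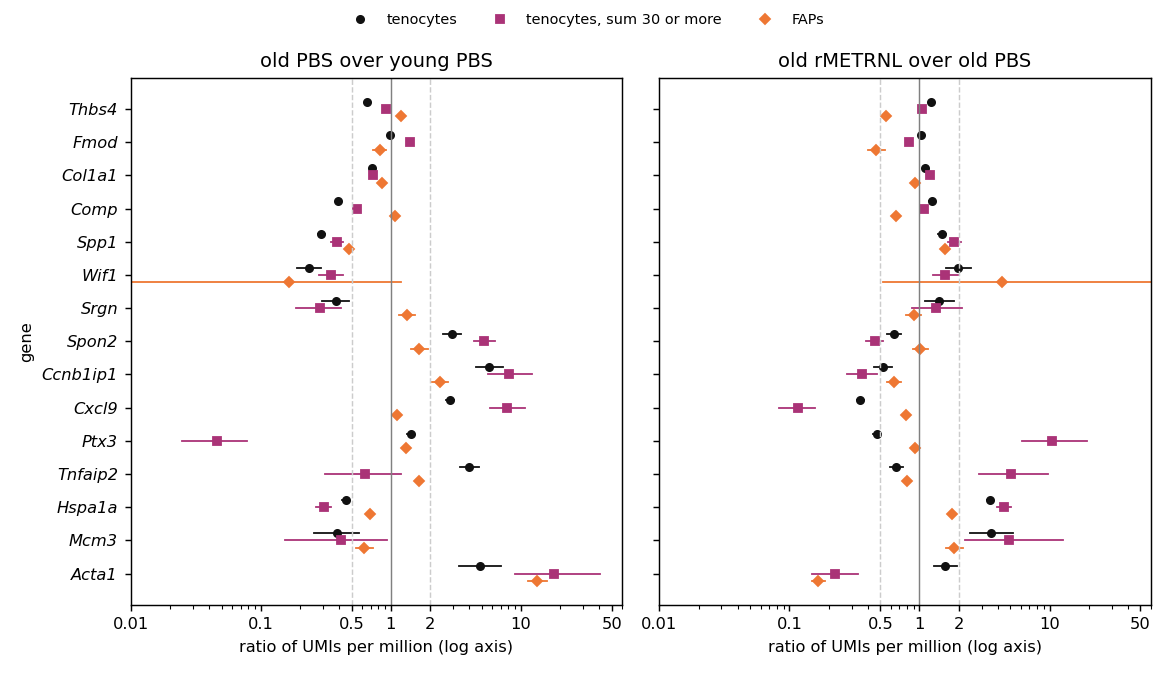
Ratio of CPM (log axis) of old PBS over young PBS and of old rMETRNL over old PBS for 15 genes in all tenocytes, tenocytes with a gate sum of 30 or more, and FAPs; lines are exact 95% intervals, counting error only, ended at the axis limits. Comp, Spp1 and Wif1 lie under 1 in old PBS over young PBS in all members and at high sums, Spon2 and Ccnb1ip1 over 1, and Tnfaip2 and Ptx3 change side between all members and those of high sum.

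Old rMETRNL over young PBS, which crosses age and treatment, held 84 genes at least 2-fold higher (0.938%) and 34 lower (0.38%). All 7 measured muscle fibre genes and 4 of 6 mural genes were among the higher ones. Without the member of each library with the most UMIs of the gene, the ratio was 0.915 for Tnnt3, 1.43 for Tnnc2 and 1.82 for Mylpf, against 6.58, 7.73 and 6.30 with all members. For Acta1, Ckm, Myl1 and Tnni2 it was 2.50 to 16.9. For the mural genes Acta2 and Tagln the ratio was 1.67 and 1.77 without those members, and 1 old rMETRNL member held 70.2% of the Cnn1 UMIs and 51.6% of those of Myh11.

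Metrnl itself, the gene of the protein that was given, was at 112, 94.3 and 111 CPM in tenocytes, 73.5, 95.5 and 103 CPM in FAPs and 182, 204 and 207 CPM in macrophages. It was found in 155, 119 and 189 members. Its ratio was 0.839 (0.733 to 0.958) for old PBS over young PBS and 1.18 (1.04 to 1.34) for old rMETRNL over old PBS, and in FAPs 1.3 (1.22 to 1.38) and 1.07 (1.01 to 1.14).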

How the data were processed

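Members, gene lists and named genes were chosen with earlier results of these data known. The authors deposited filtered matrices of UMI counts per gene and barcode for 3 libraries, with no cell annotation. The file header names Cell Ranger 5.0.0, the submitters' processing notes list 3.1.0 and 5.0.0 and the build mm10, the study's methods name another version, and this was not settled. Cells were kept from 500 genes upwards and below 10% of UMIs from mitochondrial genes. Members were gated on raw UMIs. FAPs were also required to hold none of Ptprc, Pecam1 and Cdh15, and the gate without this was an alternative. Macrophages held at least 2 UMIs of Ptprc and 1 of Adgre1. Counts of 78 features with a shared symbol were summed by symbol.

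UMIs were summed per library and class and divided by the total to CPM. With 1 library per group no test was made. Ratios carry exact conditional 95% intervals and shares exact Clopper-Pearson intervals, which cover counting error only. A gene was called at 2-fold, against FAPs in all 3 libraries, with a minimum of 100 UMIs. Genes to be named were drawn from the 5 markers, for the FAP comparison the 20 genes of highest and 15 of lowest ratio in the library nearest to 1, for each pair of libraries the 12 genes highest and 12 lowest by the bound nearest to 1, and in each list the 4 genes of highest level and 4 of largest ratio. Not every gene of the lists is named, Gm and Rik genes are left unnamed, and old rMETRNL over young PBS is given by counts and lists. Other list members named for the calls they carry were chosen after their values were seen. The strata by gate sum were also chosen after the data were seen. Scaling by the median of ratios moved the median of all genes by under 0.1 on the log2 scale.

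Scrublet's automatic threshold called 0 doublets in each library, so doublets were kept, and removal at a rate of 0.8% per 1000 barcodes was an alternative. The computations were tested on simulated data. Python 3.11.15, numpy 2.4.6, scipy 1.17.1, pandas 2.3.3, scanpy 1.11.5 and matplotlib 3.10.9 were used. Gene positions are from the GENCODE annotation of GRCm38 and promoters from RefSeq.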

Additional observations from a re-analysis of the deposited data

Results flagged for a closer look

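A signal of the gate genes was found in cells that the comparisons above do not use. Of cells with a gate sum of at least 3, an exclusion gene left out 84 of 313 in young PBS (26.8%, 22 to 32.1), 72 of 249 in old PBS (28.9%, 23.4 to 35.0) and 108 of 400 in old rMETRNL (27.0%, 22.7 to 31.6). Ptprc was found in 54, 35 and 67 of them, Pecam1 in 23, 43 and 52, and Cdh15 in 17, 4 and 4. A single UMI of these genes was all that 35, 30 and 43 of them held. Their median gate sum was 29.5, 15.5 and 20, and doublet calls fell on 29.8%, 27.8% and 37.0% of them.

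For Epyc and Inmt, all members and FAPs lay on opposite sides between old PBS and young PBS. Epyc held 0 UMIs in old PBS tenocytes, at least 67.6-fold lower than in young PBS, and its ratio in FAPs was 2.12. That of Inmt was 0.140 in tenocytes and 3.36 in FAPs. These differences were not tested, and in tenocytes they rest on 3 members of young PBS for Epyc and on 10 and 3 members for Inmt.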

How the results depend on the processing

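No paired analysis was possible because each group is 1 library, and for the same reason no replicate could be left out. Of 33 recomputed ratios of shares, 30 stayed inside the counting interval, and old PBS had the lowest share under every alternative run. The share of tenocytes in young PBS, old PBS and old rMETRNL was 2.32%, 1.90% and 2.75% with a gate sum of at least 2, 1.68%, 1.26% and 1.95% with at least 5, 2.33%, 1.90% and 2.63% with 1 UMI allowed of each exclusion gene, and 6.86%, 4.78% and 7.02% of cells with Ptprc at 0. With Kera and Chad alone it was 1.02%, 0.597% and 1.02%, and the ratio of old PBS to young PBS was 0.587. In members with Pdgfra at 0 it was 0.842%, 0.597% and 1.03%, and the ratio of old rMETRNL to old PBS was 1.73. With a sum of at least 30, an alternative chosen after the data were seen, it was 0.903%, 0.561% and 0.907%, and the ratio of old PBS to young PBS was 0.621. Without thinning Fmod was found in 80.3%, 72.9% and 76.0% of members and Thbs4 in 91.3%, 80.8% and 89.4%, and with 2000 UMIs Thbs4 was found in 75.4% of old rMETRNL members.

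The counts of genes that differed from FAPs, 123 higher and 83 lower, depended on the gate. They were 217 and 480 with Kera and Chad alone, 208 and 543 in members with Pdgfra at 0, and 206 and 473 with a sum of at least 30. The lower genes numbered 38 with a sum of at least 2, 194 with at least 5, 169 with the mean of per-cell CPM and 328 against FAPs gated by Pdgfra and Tnmd alone. With a minimum of 300 UMIs there were 68 and 48, and with none 552 and 173. For old PBS over young PBS, the lower genes numbered 132 with Kera and Chad alone and 100 with a sum of at least 30. Minimums of 50 and 300 UMIs gave 230 higher and 157 lower and 50 higher and 17 lower, and none gave 2310 and 1942. For old rMETRNL over old PBS, the lower genes numbered 24, 27 and 70 with a sum of at least 2, with at least 5 and with the mean of per-cell CPM, and the higher genes 84 with 1 exclusion UMI allowed, 95 without doublet calls and 83 in members with Pdgfra at 0. Minimums of 50 and 300 UMIs gave 156 higher and 94 lower and 17 higher and 11 lower, and none gave 1124 and 1885. Of the 55 higher and 43 lower genes for old rMETRNL over old PBS, 5 and 1 were among the 83 and 36 called in members with Pdgfra at 0, and 9 and 2 among the 81 and 37 called with a sum of at least 30. Of the 109 higher and 66 lower for old PBS over young PBS, 20 and 15 were among the 94 and 100 called with that sum. The minimum of 100 UMIs was applied anew to the members of each such setting. How many of the main calls still met it there was not counted, so a missing call can be a gene no longer measured. For old rMETRNL over young PBS, the lower genes numbered 59 with Kera and Chad alone. Minimums of 50 and 300 UMIs gave 180 higher and 71 lower and 30 higher and 9 lower, and none gave 2353 and 1592. The cause was not tested, except that the minimum sets how many genes of few UMIs enter.

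Ratios were recomputed for Fmod, Thbs4 and the genes ranked highest or lowest against FAPs, and for those ranked so between libraries. The ranked genes were picked for extreme ratios in these same cells, so a kept side says little about stability. Of 560 against FAPs 0 changed side, and of 685 between libraries 30 did. Other genes named above, among them Pi16, Cd55, Tnfaip6, Scx and Fmod, changed side between libraries at a sum of 30 or more and are not in that number. For old PBS over young PBS, Tnfaip2 was 0.511 with Kera and Chad alone, 0.732 with Pdgfra at 0 and 0.636 with a sum of at least 30, Mustn1 was 0.919 with Kera and Chad alone and 0.979 with a sum of at least 30, Mmp12 was 1.15 with Kera and Chad alone and Slpi 1.51 with Pdgfra at 0. For old rMETRNL over old PBS, Kera and Chad alone gave 4.20 for Dlk1, 2.19 for Dio2, 16.3 for Cxcl5, 2.27 for Ptx3, 13.6 for H19 and 4.04 for Eln. Members with Pdgfra at 0 gave 4.21 for Ccl5, 2.03 for Dio2, 1.09 for Serpine2, 6.55 for Cxcl5, 11.8 for Ptx3, 1.35 for Has2 and 3.65 for Eln. A sum of at least 30 gave 3.97 for Dlk1, 1.80 for Dio2, 8.93 for Cxcl5, 10.4 for Ptx3, 1.42 for Has2, 28.3 for H19 and 4.77 for Eln. Dlk1 was 1.13 with a sum of at least 5, Ccl5 7.78 without doublet calls, and Cxcl13 0.306 without the member that held the most UMIs, chosen after the data were seen. Where a library held 0 UMIs of a gene, as for H19 in members with Pdgfra at 0, no ratio was formed. With 177 to 292 members per library, genes found in under 10 members could not be read beyond those cells.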
